A study of Mus musculus with 10 samples.

Results

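The apolipoprotein genes, Apoa1, Apoa2, Apoa4, Apoa5, Apob, Apoc1, Apoc3, Apoe, Apoh and Apom, were followed in the livers of 10 mice. These 10 genes were chosen by name and found through their Ensembl identifiers, and all 10 of them were present among the 38922 genes of the tables and passed the filter on low counts, which kept 13719 genes. The mice were wild-type males of the inbred strain C57BL/6N, 6 weeks old. In 5 of them CD95-Ab, an antibody that activates the death receptor CD95 (Fas), had been injected intraperitoneally at 0.5 µg/g of body weight, and the 5 controls had received saline. Livers were taken 6 h later in both groups, and each mouse gave its own total RNA library. The model is a short exposure to a single dose, and whole liver was sequenced, so that fewer cells of a type and less RNA per cell cannot be told apart in the values below.

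Apolipoproteins are the protein part of the particles that carry lipids in blood, and the liver makes most of them. Apob is the scaffold of very-low-density lipoprotein (VLDL), Apoa1 and Apoa2 are the main proteins of high-density lipoprotein (HDL), and Apoe is the ligand that returns remnant particles to the liver. The small exchangeable proteins move between particles: Apoc3 restrains and Apoa5 promotes the hydrolysis of triglycerides by lipoprotein lipase, while Apoc1 interferes with the uptake of remnants. Apom carries sphingosine 1-phosphate on HDL, and Apoh, also called β2-glycoprotein I, is an abundant plasma protein that binds anionic phospholipids.

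The totals ranged from 25965699 to 62097636 counts in saline-injected controls and from 27480796 to 44962196 counts in mice injected with CD95-Ab. Levels are given as CPM, counts scaled to a total of 1000000 after adjustment of the totals (TMM), and differences as the log2 fold change of CD95-Ab over saline with its standard error. A gene was called changed at a false discovery rate (FDR) of 0.05 or less in the quasi-likelihood test of edgeR, adjusted over all 13719 genes. At this threshold 22.0% of all tested genes were lower and 25.4% were higher after CD95-Ab, together 47.3%. A pair of libraries held the highest mitochondrial share of their group. Mitochondrial transcripts held 21.9% of the counts in saline replicate 5, compared with 7.56% to 10.1% in the other controls. In CD95-Ab replicate 4 they held 22.1%, at the end of a graded range, with 8.45%, 11.3%, 14.1% and 18.0% in the others. Saline replicate 5 and CD95-Ab replicate 4 also had the smallest long-transcript share of their group, 8.62% and 9.24%. That share covers the counts on genes whose longest transcript is 5000 bases or more. Values without these libraries are given beside the results they touch.

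Several of the genes lie in clusters (positions in GRCm38, GENCODE release M21). On chromosome 9 Apoa1 (46228580 to 46230466, plus strand), Apoc3 (46232933 to 46235636, minus strand), Apoa4 (46240696 to 46243459, plus strand) and Apoa5 (46268633 to 46271919, plus strand) span 43.3 kb. On chromosome 7 Apoc1 (19689481 to 19692660) and Apoe (19696109 to 19699188) lie on the minus strand in a cluster with Apoc4 and Apoc2 that spans 27.6 kb. The other genes are single: Apoa2 on chromosome 1 (171225054 to 171226379), Apoh on chromosome 11 (108343354 to 108414396), Apob on chromosome 12 (7977648 to 8016835) and Apom on chromosome 17 (35128997 to 35132050).

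The promoters of 3 of them are shown because the results differ most between these genes: Apoh was the gene called lower, Apob the gene whose estimate was above 0, and Apoa1 the reference gene of the ratios. Each window holds the 150 bases before the RefSeq transcription start (GRCm38.p6, plus strand), and capitals mark matches to the motifs searched. RefSeq and GENCODE place these starts differently. The Apoh window lies well inside the gene span given above, and the Apob and Apoa1 windows run past the starts given above.
Apoh, chr11:108395147-108395296: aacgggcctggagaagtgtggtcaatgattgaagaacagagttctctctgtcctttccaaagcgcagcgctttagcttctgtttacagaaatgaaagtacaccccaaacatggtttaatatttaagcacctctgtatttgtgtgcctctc
Apob, chr12:7977527-7977676: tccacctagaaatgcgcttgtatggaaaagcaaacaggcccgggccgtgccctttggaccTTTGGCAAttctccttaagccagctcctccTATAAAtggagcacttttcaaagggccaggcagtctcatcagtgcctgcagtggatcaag
Apoa1, chr9:46228480-46228629: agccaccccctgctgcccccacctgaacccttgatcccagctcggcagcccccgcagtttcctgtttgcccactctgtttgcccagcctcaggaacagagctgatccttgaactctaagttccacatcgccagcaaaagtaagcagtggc
Motifs were searched on both strands of the 250 bases before each start, in the 8 genes for which RefSeq windows were at hand (Apoc1 and Apoc3 were not among them, and any window of a gene counted) and in all 32817 windows. The C/EBP motif TTGCNNAA was found at Apob and Apoa2 and in 9.57% of all windows. The TATA box TATAAA was found at Apob, Apoa2, Apoa5 and Apoe and in 12.4% of all windows, and the HNF1 half-site GTTAAT at Apoe and in 6.44%. Neither the HNF4 element CAAAGTCCA (0.384% of all windows) nor the CRE core TGACGT (6.46%) had an exact match in the windows of these genes. The motifs do not share letters in the windows shown, and a match is a description of the sequence only.

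Apoh was the only apolipoprotein gene of the 10 called lower after CD95-Ab, and 0 were called higher with edgeR (0 at an unadjusted p under 0.05, and 0 with DESeq2). Its level in saline replicates 1 to 5 was 1591, 1639, 1394, 1234 and 1391 CPM. In CD95-Ab replicates 1 to 5 it was 978, 916, 959, 1057 and 819 CPM. Every mouse injected with CD95-Ab was below every control, a separation that 14.7% of all tested genes showed. The mean went from 1450 ± 165 to 946 ± 87.1 CPM (SD, n = 5 per group), and the level fell by 34.8%, with a log2 fold change of -0.62 (SE 0.14, 95% interval -0.93 to -0.31, FDR 0.00383 by edgeR). It was also the gene with the smallest spread among mice injected with CD95-Ab, with a coefficient of variation of 9.21%. Apoh was called lower in each of the 21 alternative settings at an FDR of 0.05, among them the fit without saline replicate 5 and CD95-Ab replicate 4, where the log2 fold change was -0.68 (FDR 0.00371). It overlaps Prkca on the opposite strand by 575 bases, but Prkca had a mean of 211 counts per mouse compared with 42599 for Apoh.

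The count of 1 gene of 10 called lower was below the share of all tested genes, and no apolipoprotein gene reached a log2 fold change of 2 in size. The estimates nevertheless lay mostly on the same side: 9 of 10 were below 0, with a median of -0.38. Of all 13719 tested genes 6803 were below 0, with a median of 0.01. Among the 1108 tested genes with a mean of 100 CPM or more, a range that holds all 10, 657 were below 0. Their median was -0.20 and 32.2% were called lower. The 10 genes share their libraries and some deviated together, such as Apoa2 and Apoe (r = 0.96 within groups). Their signs are therefore not separate observations. The count below 0 was also 9 under the other scalings of the counts, and it was 8 without saline replicate 5 and CD95-Ab replicate 4 and 10 on the FPKM scale.

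**Figure D1:**
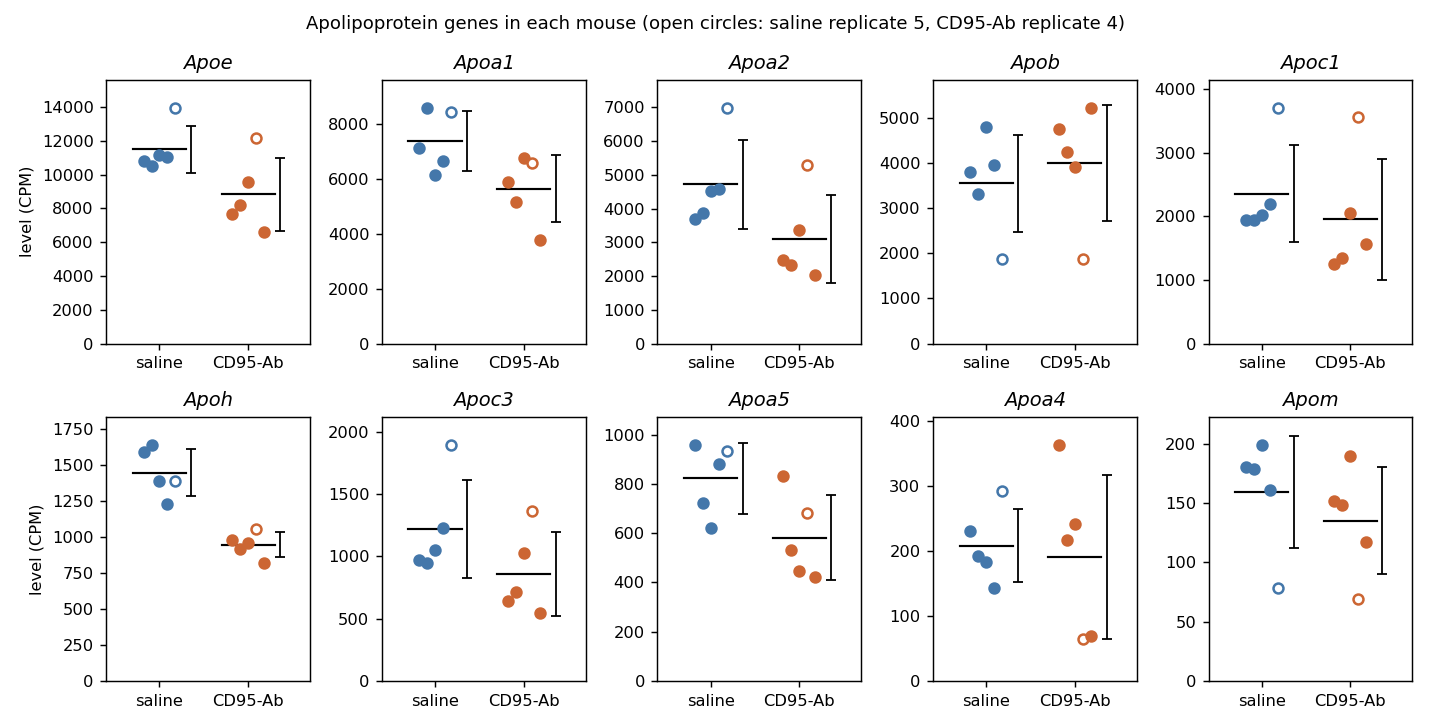
Level of each apolipoprotein gene in each mouse in CPM (y axis from 0, 1 panel per gene), with 5 saline-injected controls in blue and 5 mice injected with CD95-Ab in orange. Horizontal lines are means, bars to their right are the SD, and open circles are saline replicate 5 and CD95-Ab replicate 4. Groups separate completely for Apoh alone, and the open circles are the lowest of their group for Apob and Apom and the highest for Apoe, Apoa2, Apoc1 and Apoc3.

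The structural protein of HDL, Apoa1, was at 7127, 8596, 6149, 6668.5 and 8432 CPM in saline replicates 1 to 5. After CD95-Ab it was at 5912, 5180.05, 6781, 6576 and 3771 CPM. The groups overlapped, since CD95-Ab replicates 3 and 4 lay above saline replicate 3, and the log2 fold change was -0.39 (SE 0.21, 95% interval -0.84 to 0.06, FDR 0.138). Without the libraries of high mitochondrial share it was -0.41 (FDR 0.141).

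Apoa2, the second protein of HDL, was at 3699, 3860.4, 4525, 4573 and 6985 CPM in the controls and at 2491, 2325, 3359, 5286 and 2042 CPM after CD95-Ab. CD95-Ab replicate 4 lay above 4 of the 5 controls, and the other 4 mice injected with CD95-Ab lay below every control. Its log2 fold change of -0.61 was close to that of Apoh, but the SE was 0.29 and the FDR 0.0991. Without saline replicate 5 and CD95-Ab replicate 4 the value was -0.72 (SE 0.19) and passed the test (FDR 0.011).

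The level of Apom was the lowest of the 10 genes in CPM, at 181, 179, 199, 161 and 78.3 CPM in the controls and 152, 148, 189.7, 68.9 and 117 CPM after CD95-Ab. The lowest mouse of each group was the library with the high mitochondrial share. Apom had a log2 fold change of -0.24 (SE 0.28, FDR 0.511), and without these libraries it was -0.26 (SE 0.15, FDR 0.166).

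Apob was the only gene of the 10 with an estimate above 0. Its level was 3805, 3327, 4815, 3952 and 1886 CPM in saline replicates 1 to 5 and 4771, 4259, 3918, 1870.4 and 5227 CPM in CD95-Ab replicates 1 to 5. Within each group the library with the high mitochondrial share was the lowest. The other 4 mice lay between 3327 and 4815 CPM in the controls and between 3918 and 5227 CPM after CD95-Ab. The log2 fold change was 0.17 (SE 0.30, 95% interval -0.48 to 0.83, FDR 0.661), and it was 0.18 (SE 0.18, interval -0.22 to 0.59) without these libraries. On the FPKM scale the sign turned, with a difference of -0.18 (limma, adjusted p = 0.526).

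An FPKM value also rests on the length that RSEM used for the gene, which can be worked out from the ratio of count to FPKM. For Apob this effective length was 2882 bases in saline replicate 5 and 3083 bases in CD95-Ab replicate 4. It lay between 4110 and 4890 bases in the other controls and between 4826 and 6008 bases in the other mice injected with CD95-Ab. GENCODE M21 lists Apob transcripts of 13934, 13369, 2174 and 1118 bases, so that a shorter mean length gives more weight to the short models. The effective length of Apoa1 moved only between 967 and 976 bases and that of Apoh between 1127 and 1137 bases over the 10 mice. FPKM levels of Apob therefore carry this additional uncertainty, and whether the short models reflect real transcripts was not tested.

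Apoe was the most abundant of the 10 genes, at 10788, 10508, 11159.8, 11046 and 13945 CPM in the controls and 7643, 8199, 9570.2, 12162 and 6586 CPM after CD95-Ab. Only CD95-Ab replicate 4 reached the range of the controls, and the log2 fold change was -0.38 (SE 0.21, 95% interval -0.83 to 0.07, FDR 0.153). As a percentage of the total count, before TMM adjustment, Apoe took 1.11% to 1.21% in the controls and 0.662% to 1.03% after CD95-Ab, without overlap. On that scale Apoe and Apoh were the 2 of 10 genes whose groups did not overlap downward, beside 14.8% of all tested genes, and with raw totals in place of TMM the test gave Apoe -0.47 (FDR 0.039). With TMM the value was -0.45 (SE 0.18, FDR 0.0548) without both libraries of high mitochondrial share and -0.54 (FDR 0.0384) without CD95-Ab replicate 4 alone. The call for Apoe therefore depended on the scaling of the totals and on that library. Macrophages also make Apoe. Of 11 markers of Kupffer cells and macrophages 3 were higher and none was lower, beside 25.4% of all tested genes that were higher. Their summed level was 191 to 638 CPM in the controls and 383 to 814 CPM after CD95-Ab, with overlap. The part of macrophages in the Apoe values was not tested.

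Its neighbour Apoc1 was at 1938, 1950.1, 2019, 2191 and 3706 CPM in the controls and 1246, 1343, 2049, 3570.1 and 1570.3 CPM after CD95-Ab. The highest value of each group was again the library with the high mitochondrial share. For Apoc1 the log2 fold change was -0.27 (SE 0.31, FDR 0.496), and it was -0.39 (SE 0.18, FDR 0.0862) without these libraries.

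Apoc3, the inhibitor of triglyceride hydrolysis, was at 968, 945, 1048, 1226 and 1891 CPM in the controls and 639, 714, 1028, 1364 and 542 CPM after CD95-Ab. CD95-Ab replicates 1, 2 and 5 lay below every control. The log2 fold change was -0.50 (SE 0.28, FDR 0.161), and without the libraries of high mitochondrial share it was -0.53 (SE 0.20, FDR 0.0502), just outside the threshold.

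Apoa5, which promotes hydrolysis, was at 957, 724, 621, 879 and 934 CPM in the controls and 831, 531, 445, 682 and 421 CPM after CD95-Ab. CD95-Ab replicates 1 and 4 lay within the range of the controls and the others below it. Apoa5 had a log2 fold change of -0.50 (SE 0.21, 95% interval -0.96 to -0.04, FDR 0.0719), and it was -0.52 (FDR 0.0961) without the libraries of high mitochondrial share. Over the fits without 1 mouse it ran from -0.40 (FDR 0.151, without CD95-Ab replicate 5) to -0.66 (FDR 0.0195, without CD95-Ab replicate 1).

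Apoa4 is a protein of chylomicrons and HDL that the intestine makes in large amounts and the mouse liver also expresses. Among mice injected with CD95-Ab it was the most variable of the 10, but not among the controls. It was at 231, 193, 184, 143 and 292 CPM in the controls, with a coefficient of variation of 26.9%, compared with 32.4% for Apoc3. After CD95-Ab it was at 363, 217, 242, 64.9 and 68.7 CPM, with a coefficient of variation of 66.1%. CD95-Ab replicate 1 was above every control and CD95-Ab replicates 4 and 5 were below every control. The log2 fold change was -0.13 (SE 0.43, FDR 0.825), and it was 0.23 (SE 0.40) without the libraries of high mitochondrial share, so that its direction was not settled. Of 9 markers of intestinal epithelium, 4 were at 0 in every mouse and 1 passed the filter on low counts, and their summed level was 32.0 to 61.4 CPM in the controls and 22.4 to 44.5 CPM after CD95-Ab.

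**Figure D2:**
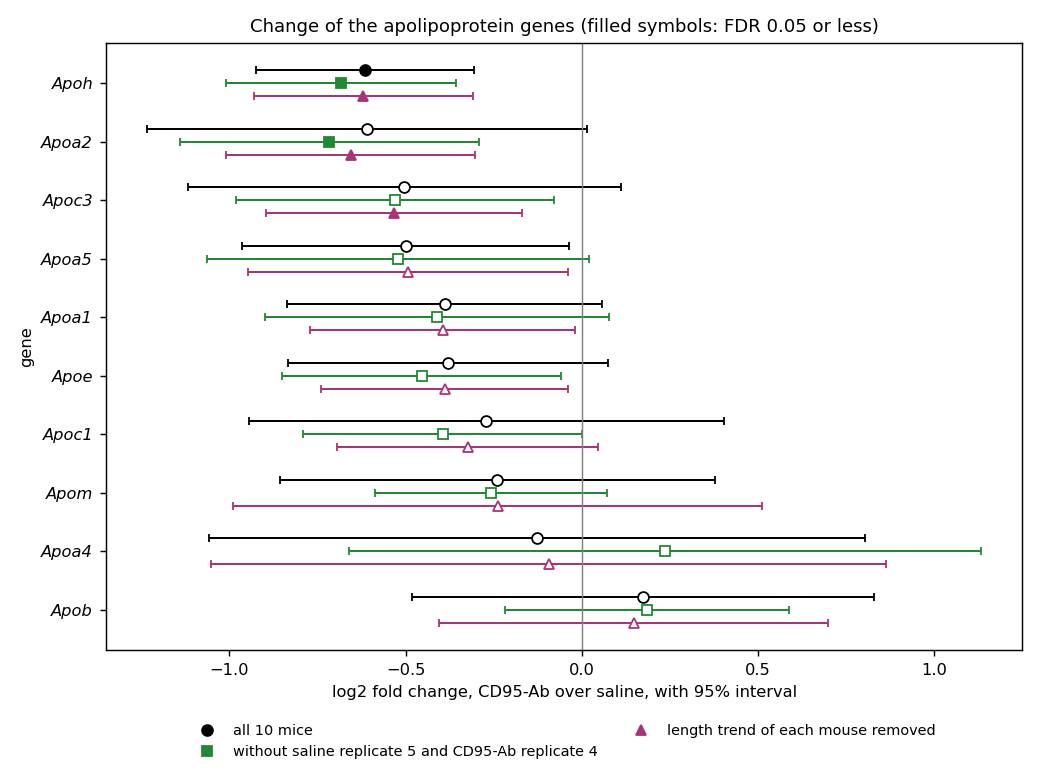
Log2 fold change of CD95-Ab over saline with its 95% interval (x axis) for each apolipoprotein gene (y axis), in the fit with all 10 mice (circles), without saline replicate 5 and CD95-Ab replicate 4 (squares) and with the length trend of each mouse removed (triangles). Filled symbols have an FDR of 0.05 or less: Apoh in all 3 fits, Apoa2 in the latter pair and Apoc3 in the last.

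The libraries of high mitochondrial share held the highest levels of some genes and the lowest of others. In saline replicate 5 and CD95-Ab replicate 4 the genes with short transcripts, Apoa2 (longest transcript 518 bases), Apoc1 (532 bases) and Apoc3 (709 bases), were at their highest level of the group, and Apob was at its lowest. Transcript length did not order the genes throughout, since Apoe (1408 bases) was highest and Apom (1013 bases) lowest in both libraries. When a smooth trend of each mouse on transcript length was removed, Apoa2 (log2 fold change -0.66, SE 0.16, FDR 0.00543) and Apoc3 (-0.53, SE 0.17, FDR 0.0192) passed the test beside Apoh. The SE of Apoa2 was 0.29 before this step. The estimates moved by less than their SE. This was largely built in, since the trend was fitted to deviations from the mean of each group. Such a step can hardly move a group difference and mainly narrows the spread within groups. No degrees of freedom were taken off for it, so its SE and FDR values may be too small. Why these libraries differed was not tested.

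**Figure D3:**
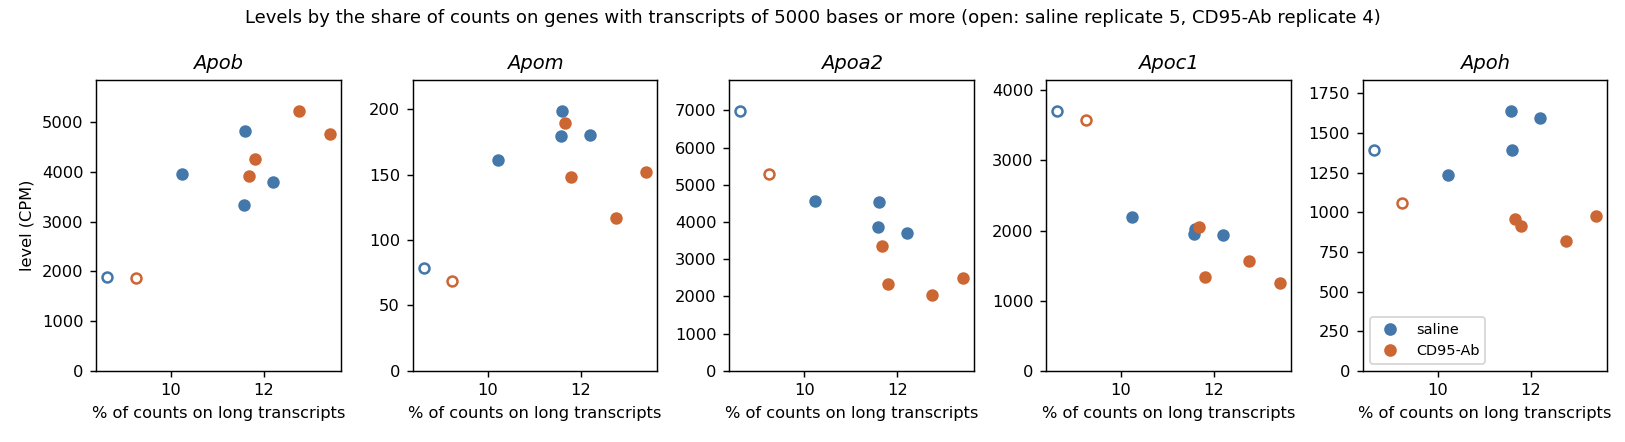
Level in CPM (y axis, from 0) of Apob, Apom, Apoa2, Apoc1 and Apoh in each mouse against the percentage of its counts on genes with a longest transcript of 5000 bases or more (x axis), which includes Apob itself. Open circles, saline replicate 5 (8.62%) and CD95-Ab replicate 4 (9.24%), are the lowest of their group for Apob and Apom and the highest for Apoa2 and Apoc1, while for Apoh every mouse injected with CD95-Ab (orange) is below every control (blue).

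Together the 10 genes held 3.43% ± 0.17 of the counts in saline-injected controls and 2.53% ± 0.29 in mice injected with CD95-Ab (SD, n = 5 per group). The range was 3.21% to 3.64% in the controls and 2.13% to 2.84% after CD95-Ab, without overlap on this scale of raw totals. After TMM adjustment the summed levels did overlap, at 31285 to 39541 CPM in the controls and 21166 to 32701 CPM after CD95-Ab. Without Alb and the mitochondrial genes in the total, the share was 3.91% to 4.93% and 2.57% to 3.70%. Apoe alone was 34.4% of the counts of the 10 genes in the controls and 33.4% after CD95-Ab, Apoa1 was 22.2% and 21.4%, and Apob was 10.9% ± 3.8 and 16.2% ± 7.1.

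The order of the genes per length, from the mean FPKM, was the same in both groups: Apoe, Apoa2, Apoa1, Apoc1, Apoc3, Apoh, Apob, Apoa5, Apom and Apoa4. In the controls it ran from 13328 ± 608 FPKM for Apoe to 122 ± 27.5 FPKM for Apoa4, and after CD95-Ab from 9334 ± 1349 to 110.1 ± 82.1 FPKM (SD, n = 5). Neighbours whose ranges overlapped in the controls were Apoe and Apoa2, Apoa2 and Apoa1, Apoa1 and Apoc1, and Apom and Apoa4. After CD95-Ab the ranges of Apoh and Apob and of Apoa5 and Apom overlapped as well. Apoh was above Apob in 5 of 5 controls and in 3 of 5 mice injected with CD95-Ab.

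Ratios of FPKM within a mouse do not depend on the scaling of the libraries, and 9 of them were compared between the groups with a two-sided exact permutation test, whose smallest possible p is 0.00794 with 5 mice against 5. None differed beyond the spread between mice. The lowest p was that of Apoh to Apoa1, whose log2 ratio was -2.56 ± 0.20 in the controls and -2.77 ± 0.22 after CD95-Ab, a difference of -0.21 (SD, n = 5, exact permutation p = 0.151, 0.847 after adjustment over the 9 ratios). Whether Apoh changed relative to Apoa1 was not settled at this number of mice. The ratio of Apob to Apoa1 differed by 0.32 on the log2 scale (exact permutation p = 0.325, n = 5 per group), that of Apoc3 to Apoa1 by -0.13 (p = 0.563) and that of Apoc1 to Apoe by 0.10 (p = 0.659). The p of the others lay between 0.302 for Apoa2 to Apoa1 and 0.992 for Apoa4 to Apoa1.

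Outside the 10 genes, 18 other members of the apolipoprotein family were listed. Of these 15 were tested, and 2 were lower and 5 higher (3 and 5 without the libraries of high mitochondrial share). Saa3, an acute-phase apolipoprotein of HDL, rose from 7.31 to 635 CPM (log2 fold change 6.44, SE 0.69, FDR 1.9e-05), and Saa2 rose from 267 to 5711 CPM (4.42, SE 0.87, FDR 0.00147). The controls of Saa2 were spread from 33.2 to 951 CPM, and its log2 fold change was 5.88 without saline replicate 2. Apol8 went from 0.033 to 2.57 CPM (5.86, FDR 0.00145), at most 9.47 CPM in a single mouse, and with so few counts in the controls its fitted change is not a measure of size. Apol7a fell by 1.60 on the log2 scale (FDR 0.000324) and Apool, a mitochondrial protein of the family by name, by 0.32 (FDR 0.045, up to 0.0934 with a mouse left out). Apoc2, the activator of lipoprotein lipase, went from 127 to 119 CPM (-0.09, FDR 0.767) and Apoc4, which lies beside it, from 459 to 326 CPM (-0.49, FDR 0.193, and -0.56, FDR 0.00989, without the libraries of high mitochondrial share).

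Genes that load and export Apob-containing particles were mostly lower where they passed the test. Of 17 tested, 9 were lower and 2 higher, with the same counts without the libraries of high mitochondrial share. Mttp, the microsomal triglyceride transfer protein that lipidates Apob, fell from 247 to 167 CPM (log2 fold change -0.56, SE 0.20, FDR 0.0324), but the call was lost in 5 of 21 alternatives, with an FDR of 0.0824 without saline replicate 3. Tm6sf2, which promotes the lipidation of VLDL, fell from 25.2 to 12.0 CPM (-1.08, FDR 0.000244), Soat2 by 0.66 (FDR 0.00676) and Mia3, a cargo factor for large particles, by 0.66 (FDR 0.00873). Hspa5, an endoplasmic reticulum chaperone that is also a marker of its stress response, rose from 335 to 1127 CPM (1.75, SE 0.18, FDR 1.8e-05), and the cargo receptor Surf4 rose by 0.40 (FDR 0.0422), a call lost in 13 of 21 alternatives.

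Of 5 genes of Apob mRNA editing, 2 were lower and 2 higher, with the same counts without the libraries of high mitochondrial share. In mouse liver Apobec1 changes a cytidine of the Apob transcript so that a shortened protein is made. Apobec1 rose from 12.2 to 42.5 CPM, with 9.13 to 14.0 CPM in the controls and 32.5 to 52.4 CPM after CD95-Ab (log2 fold change 1.80, SE 0.16, FDR 4.6e-06). Its RNA-binding cofactors Rbm47, from 49.8 to 24.3 CPM (-1.04, FDR 1.9e-05), and A1cf, from 62.2 to 32.5 CPM (-0.93, FDR 0.0303), fell, although A1cf had an FDR of 0.0724 without saline replicate 1. Syncrip, another gene of this list, rose by 0.78 (FDR 0.000263), and its effect on editing was not tested. Counts per gene do not show how much of the Apob transcript was edited.

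Of 12 genes of HDL formation and remodelling, 4 were lower and 2 higher (5 and 2 without the libraries of high mitochondrial share). The exporters that pass cholesterol to Apoa1 and HDL rose, Abca1 from 162 to 445 CPM (log2 fold change 1.46, SE 0.18, FDR 5.2e-05) and Abcg1 from 3.82 to 10.7 CPM (1.49, FDR 0.000417). Pdzk1, the adaptor of the HDL receptor, fell by 0.80 (FDR 0.000281), Bmp1, a protease that processes the Apoa1 precursor, by 0.71 (FDR 0.000734) and the HDL-bound enzyme Pon1 by 0.70 (FDR 0.0069). Lcat, which esterifies HDL cholesterol, was at 286 and 237 CPM (-0.27, FDR 0.0953, and -0.32, FDR 0.0447, without the libraries of high mitochondrial share).

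Among 15 genes of lipoprotein uptake, 3 were lower and 6 higher, and without the libraries of high mitochondrial share the counts were 4 and 7. Apobr, a receptor for Apob of macrophages, rose by 2.31 (FDR 0.000114) from 1.32 CPM and Cd36 by 1.47 (FDR 3.5e-05). Vldlr fell by 1.44 (FDR 0.00488) and Lrpap1 by 0.52 (FDR 0.00072).

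Of 10 genes of triglyceride lipolysis, 6 were lower and 2 higher (7 and 2 without the libraries of high mitochondrial share). Lpl, lipoprotein lipase, rose from 71.2 to 230.0 CPM (1.69, SE 0.17, FDR 1.5e-05) and Gpihbp1, its endothelial anchor, from 4.55 to 9.26 CPM (1.02, FDR 0.016). The lipase inhibitor Angptl4 fell from 124 to 39.6 CPM (-1.65, FDR 0.000564), and so did Mgll (-1.36, FDR 0.00138). Values for Apoc3 and Apoa5, which act on the same step, did not pass the test in the same fit, as given above.

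Regulators known to act on apolipoprotein promoters included genes with large decreases. Of 25 tested, 12 were lower and 4 higher, and 12 and 3 without the libraries of high mitochondrial share. The median log2 fold change was -0.61, whereas that of the 10 apolipoprotein genes was -0.38. No test of the difference between the lists was made. Cebpa fell from 233 to 75.5 CPM (-1.63, SE 0.15, FDR 7.8e-06), Ppara, the fatty acid receptor of the liver, from 64.5 to 21.3 CPM (-1.60, FDR 0.00261) and Nr2f2 from 19.2 to 6.65 CPM (-1.52, FDR 5.8e-05). Creb3l3, an activator of Apoa4 and Apoa5, fell by 0.86 (FDR 0.000856). Hnf4a, which binds the promoters of most of these genes, was at 549.6 ± 105 CPM in the controls and 434 ± 91.7 CPM after CD95-Ab (-0.34, SE 0.19, FDR 0.157). Cebpb rose from 71.0 to 171 CPM (1.27, FDR 0.00537), Nr0b2 by 0.74 (FDR 0.0242, and 0.0632 without CD95-Ab replicate 5) and Srebf2 by 0.74 (FDR 0.00885).

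Genes beside the clusters were counted in the same way. Of 8 tested neighbours of the chromosome 9 cluster, 2 were lower and 2 higher. Zpr1, 1.15 kb from it, had a log2 fold change of -0.20 (FDR 0.539), and Sik3, 4.39 kb away, one of -0.18 (FDR 0.31). Rnf214 fell by 0.88 (FDR 0.000449) and Pcsk7 by 0.39 (FDR 0.0133), while Pafah1b2 rose by 0.48 (FDR 0.00577) and Tagln, a smooth muscle gene 293 kb away, by 3.05 (FDR 2.8e-05). Beside the chromosome 7 cluster 3 of 8 were higher and none was lower. Relb, a subunit of NF-κB that lies 42.1 kb away, rose from 2.01 to 29.1 CPM (3.84, SE 0.28, FDR 1.8e-06), Bcl3, another regulator of NF-κB, by 1.85 (FDR 0.00219) and Bcam by 1.36 (FDR 0.024, and 0.0678 without CD95-Ab replicate 3), while Apoe and Apoc1 between them had estimates of -0.38 and -0.27.

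**Figure D4:**
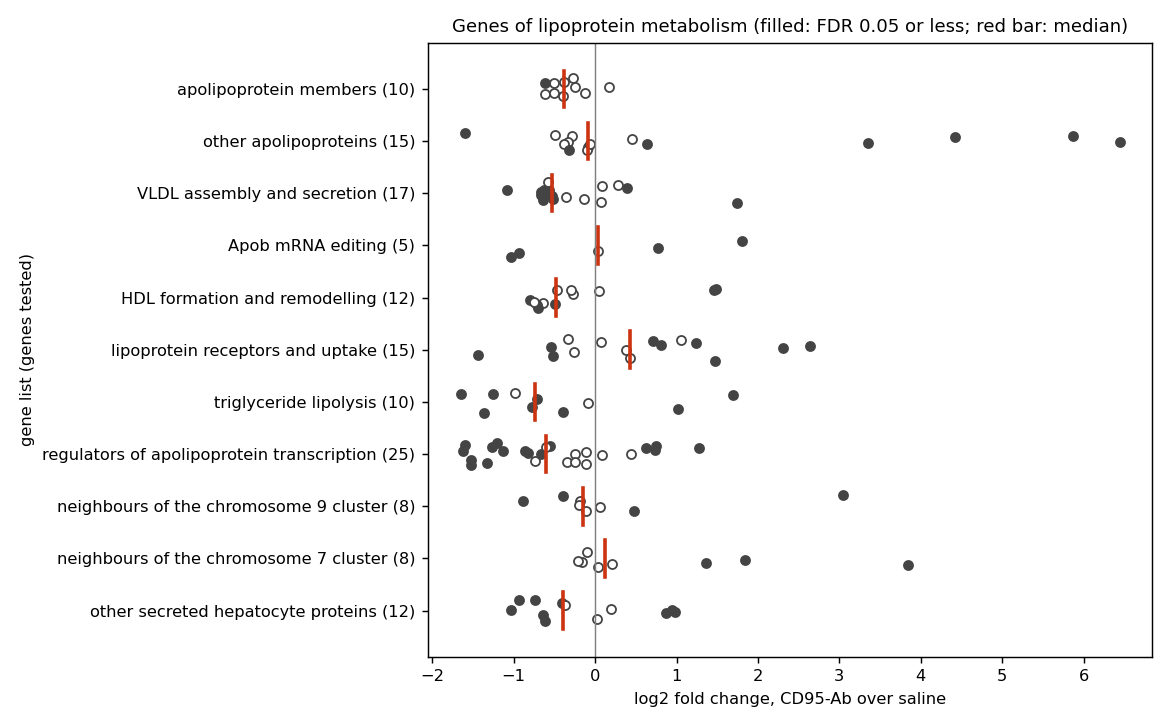
Log2 fold change of CD95-Ab over saline (x axis) of the tested genes of each list (y axis, number tested in parentheses), with filled circles for an FDR of 0.05 or less and red bars for the median of the list. The apolipoprotein genes at the top lie between -0.62 and 0.17, a narrower span than that of the regulators or of the other apolipoproteins, which reach 6.44.

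Other secreted proteins of hepatocytes had a median close to that of the apolipoproteins, -0.39 over 12 genes, but 6 were lower and 3 higher (7 and 2 without the libraries of high mitochondrial share). Alb, from 84727 to 41434 CPM (-1.03, SE 0.25, FDR 0.00529), Ttr (-0.93, FDR 0.0121) and Ahsg (-0.74, FDR 0.00454) fell. Hpx rose by 0.98 (FDR 0.0339, and 0.0858 without saline replicate 4), Itih3 by 0.95 (FDR 0.00226) and Fgb by 0.87 (FDR 0.00204), all of them acute-phase proteins.

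Markers of cell types moved between the groups as well. Of 10 hepatocyte markers 6 were lower and 1, Glul, was higher, with a summed level of 94590.5 to 123564 CPM in the controls and 42910 to 79370 CPM after CD95-Ab. Markers of other cells were higher and none was lower: 6 of 7 tested for sinusoidal endothelial cells (51.8 to 133 CPM and 172 to 318 CPM), 6 of 8 for stellate cells (208 to 279 CPM and 432 to 658 CPM) and 5 of 6 for cholangiocytes (18.4 to 33.9 CPM and 48.7 to 187 CPM). All 6 tested neutrophil markers (4.08 to 10.6 CPM and 109 to 438 CPM) and all 6 erythroid markers (135 to 325 CPM and 1064 to 34009 CPM) were higher. The part of these cells in the values of the apolipoprotein genes was not tested.

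Genes most like the mean of the 10 apolipoprotein genes from mouse to mouse included Sult1a1 (r = 0.976), Upf3a (0.968), Dda1 (0.954) and Atp6v0c (0.936). The measure was Pearson's r between log2 CPM deviations from the group mean and those of the mean of the 10 genes, over 10 mice and among 9069 genes with a mean of 5 CPM or more. The 10 genes did not all move together. By the same deviations Apoa2 and Apoc1 had r = 0.94, but Apob had -0.88 with Apoa2 and -0.90 with Apoc1. Likeness to the mean is therefore not likeness to each gene. All points of such a correlation share their libraries, including those of high mitochondrial share, and the genes named above are among the highest of many. The differences of these named genes between the groups were unlike each other, with log2 fold changes from -0.14 (FDR 0.329) for Upf3a to 0.35 (FDR 0.0396) for Dda1.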

How the data were processed

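Liver RNA of 5 saline-injected mice and 5 mice injected with CD95-Ab was sequenced as read pairs. The authors assigned reads to genes with RSEM 1.2.19 (named in the submitters' processing notes). They deposited, per mouse, expected counts without normalization and FPKM values, scaled for effective transcript length and library total. The expected counts were rounded to whole numbers before use here. RSEM shares out fragments that fit several genes, so overlapping genes depend on that step. The genome build and mouse annotation release are not given in the sources used here. Symbols and positions came from GENCODE M21 (GRCm38), which held 37606 of the 38922 identifiers, and promoter windows from RefSeq (GRCm38.p6). Of the listed genes, Fcn3 was not matched.

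The edgeR 4.0.16 function filterByExpr (minimum count 10) left 13719 genes. After TMM scaling a quasi-likelihood model with a group term was fitted in R 4.3.3, with Benjamini-Hochberg adjustment. Standard errors were derived from the F statistic, and the 9 ratios used exact permutation tests (scipy 1.17.1). As alternatives, DESeq2 1.42.0, limma 3.58.1 on log2(FPKM + 1), other factors, filters and thresholds, a block for the replicate number and fits without a mouse were run. Leaving out the libraries of high mitochondrial share, removing a length trend and applying the alternatives to the lists were added after seeing the data. On simulated counts of 13627 genes, drawn for CD95-Ab against saline, 60.6% of 99 genes with a simulated log2 change of 1 and 98% of 100 genes with 2 were found. These sizes are larger than any estimate of the 10 genes (-0.62 to 0.17), so they do not give the power for them. The share of genes changed was also far smaller than the share called in the data. The smallest library puts 3 counts at 0.116 CPM. The labels call the samples biological replicates, and counts of mice in a group differed beyond sampling noise (chi-square per degree of freedom 42.4 to 554).

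The 10 genes and all lists were chosen with earlier results of these data known. From each list, up to 3 called genes with the largest change in each direction and at least 1 CPM in a group were named, plus Apoc2, Apoc4, Mttp, Apobec1, Hnf4a, Creb3l3 and Lcat. Some genes that meet this rule are not reported here. Zpr1 and Sik3, the nearest neighbours of a cluster, were chosen after their values were seen.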

Additional observations from a re-analysis of the deposited data

Results flagged for a closer look

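Of 46 groups of 5 values examined for a single distant mouse, 6 held one by Dixon's criterion, and chance marks about 1 in 20 groups. In saline replicate 5 the level of Apoa2 was 6985 CPM (other controls 3699 to 4573 CPM), that of Apoc1 was 3706 CPM (1938 to 2191 CPM) and that of Apoe was 13945 CPM (10508 to 11159.8 CPM), each a high value far from the other controls. The same mouse had 21.9% mitochondrial counts, compared with 7.56% to 10.1% in the other controls, and a log2 ratio of Apoc1 to Apoe of -0.61, compared with -1.23 to -1.10. In CD95-Ab replicate 4 the log2 ratio of Apom to Apoa1 was -6.56, compared with -5.26 to -4.99 in the other mice injected with CD95-Ab.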

How the results depend on the processing

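The direction and the call of Apoh held in every alternative at an FDR of 0.05. Where 1 of the 10 genes was called lower with all mice, 2 were called with DESeq2 and with upper quartile factors (Apoa5 and Apoh in both), 4 with raw totals (Apoa2, Apoc3, Apoe and Apoh), 4 with limma on FPKM (Apoa2, Apoa5, Apoc3 and Apoh), 2 without both libraries of high mitochondrial share (Apoa2 and Apoh) and 3 with the length trend removed (Apoa2, Apoc3 and Apoh). With the replicate number as a block 2 were called (Apoa5 and Apoh). Mice with the same number did not deviate together, with correlations of 0.26, 0.087, 0.13, -0.017 and -0.27 for numbers 1 to 5, so the numbers were not treated as pairs. Leaving out each mouse gave between 1 and 4 calls, the 4 without CD95-Ab replicate 4 (Apoa2, Apoc3, Apoe and Apoh), and 2 (Apoa5 and Apoh) without saline replicate 3 or CD95-Ab replicate 1. Requiring a log2 fold change of 1 or of 2 in size left 0 of the 10 genes, and 949 lower and 2144 higher, or 152 lower and 904 higher, of all genes. An FDR of 0.01 left 1897 lower genes of all. The share held by the 10 genes differed by -0.89 percentage points of counts and by -2.38 of summed FPKM. Apoa4 reversed to 0.23 without both libraries, and ran from -0.49 to 0.090 over the fits without 1 mouse. Apob was -0.18 with limma on FPKM. The log2 ratio of Apoe to Apoa1 was 0.0040 on counts. Over the comparisons without 1 mouse the difference in log2 ratio ran from -0.28 to 0.38 for Apoa4 to Apoa1, from -0.24 to 0.033 for Apoa5 to Apoa1, from -0.13 to 0.44 for Apom to Apoa1, from -0.12 to 0.018 for Apoe to Apoa1 and from -0.040 to 0.21 for Apoc1 to Apoe, none past the test, and Apoc2 ran from -0.34 to 0.039. Of the lists, other apolipoproteins had 1 to 4 lower genes over the fits without 1 mouse, 1 with the likelihood ratio test or another filter and 5 with limma. Secretion genes had 1 higher with upper quartile factors, raw totals, no filter, limma or the replicate block, and 1 to 2 without 1 mouse. HDL genes had 7 lower with upper quartile factors, editing genes 1 to 2 lower without 1 mouse, regulators 2 higher with limma and 2 to 4 without 1 mouse, and chromosome 9 neighbours 1 higher with raw totals or limma. Chromosome 7 neighbours had 1 lower with DESeq2 or upper quartile factors. The cause of these changes was not tested.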
